A study of Mus musculus with 6 samples.

Results

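The Zfp genes of the mouse are named by number and code for zinc finger proteins. The genes described were selected on their mean level, as the protein-coding genes of the deposited table whose symbol is Zfp followed by digits only, without Zfp36, which has another kind of zinc finger, and with a mean level of at least 2 TPM over 6 libraries. TPM is a transcript level per gene length, scaled so that each library sums to the same total. Of 378 protein-coding Zfp genes, 225 met this rule, among 41079 listed genes in all. The rule used the level over both temperatures and not the difference between them. Of the other 153 genes, 47 were listed at 0 in every library, 82 were above 0 with a mean below 1 TPM, and 24 lay between 1 and 2 TPM. Zfp9, Zfp85 and Zfp974 were just inside the threshold, with means of 2.03, 2.12 and 2.14 TPM. Zfp931, Zfp1008 and Zfp235 were just outside it, with means of 1.80, 1.82 and 2.00 TPM, the last of these below 2 before rounding.

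D10 cells (D10.G4.1) are known as a cloned mouse helper T cell line, and the labels give all libraries this 1 name. They were held for 24 h at 37°C (non-acclimated T cells, 3 libraries) or for 24 h at 26°C (cold-acclimated T cells, 3 libraries), with no other treatment or genetic change named, and poly(A) RNA was sequenced. The comparison asks which transcripts differ after cold acclimation. The labels treat RNA extracted in separate experimental batches as biological replicates and do not say which library belongs to which batch.

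In a C2H2 zinc finger, a pair of cysteines and a pair of histidines hold a zinc ion, and the finger between them reads a few bases of DNA. Arrays of such fingers make up the largest family of transcription factors in mammals. Many of these proteins also carry a KRAB box, a short domain that binds the scaffold protein Trim28 and through it brings histone methylation and gene silencing to retroelements and imprinted loci. KRAB zinc finger genes arose by repeated local duplication and lie in clusters on the chromosomes.

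The protein translated from each gene's transcripts in the GENCODE annotation was searched for both domains. A KRAB box was found in 121 of the 225 genes. At least 2 finger patterns were found in 214 genes, 1 in 6 genes and none in 5 genes (Zfp326, Zfp330, Zfp365, Zfp703 and Zfp972), so these 5 carry the name without this pattern. The median was 10 fingers, 11 in genes with a KRAB box and 6.5 in the others, and the largest array held 30. The coding sequences of 1 finger with its linker and of the KRAB box core are shown for Zfp60, the gene with the largest fall, and for Zfp28 and Zfp944, the genes with the largest rises, because the 3 proteins share both domains and differ in their response. In GRCm39, the finger of Zfp60 lies at chr7:27447856-27447939 on the plus strand, that of Zfp28 at chr7:6396701-6396784 on the plus strand and that of Zfp944 at chr17:22558610-22558693 on the minus strand. Each lies within 1 exon, and capitals mark the codons of the cysteines and histidines that bind zinc.
Zfp60 finger: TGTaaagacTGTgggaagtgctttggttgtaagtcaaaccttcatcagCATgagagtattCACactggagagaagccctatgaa
Zfp28 finger: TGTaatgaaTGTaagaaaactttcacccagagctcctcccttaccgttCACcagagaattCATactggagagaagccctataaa
Zfp944 finger: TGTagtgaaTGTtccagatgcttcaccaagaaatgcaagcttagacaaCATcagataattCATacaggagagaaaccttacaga

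Over these 84 bases, Zfp60 shared 53 with Zfp28 and 51 with Zfp944, and Zfp28 shared 57 with Zfp944. The KRAB box cores lie at chr7:27437737-27437826 (Zfp60, plus strand), chr7:6392441-6392530 (Zfp28, plus strand) and chr17:22559976-22560065 (Zfp944, minus strand), and capitals mark the codons of a glutamate and tryptophan pair in the domain.
Zfp60 KRAB: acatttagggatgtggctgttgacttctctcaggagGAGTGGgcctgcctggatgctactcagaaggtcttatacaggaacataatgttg
Zfp28 KRAB: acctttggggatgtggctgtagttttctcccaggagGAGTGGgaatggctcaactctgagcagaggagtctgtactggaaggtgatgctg
Zfp944 KRAB: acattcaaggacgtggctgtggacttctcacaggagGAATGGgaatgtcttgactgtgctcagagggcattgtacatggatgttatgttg

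Over these 90 bases, 63 were the same in Zfp60 and Zfp28, 67 in Zfp60 and Zfp944 and 64 in Zfp28 and Zfp944. The identity was thus 70.0%, 74.4% and 71.1%, above the 63.1%, 60.7% and 67.9% of the fingers shown for the same pairs. Each finger shown is the first in its protein that matched the pattern, so the fingers compared need not correspond in their arrays.

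The libraries held 16899628 to 31290854 reads on genes, recovered from the steps of the TPM values. Summed over 10 T cell markers, the level was 4360 to 5708 TPM in non-acclimated and 3371 to 4383 TPM in cold-acclimated libraries. The labels give a CD4+ T cell, but Cd4 itself was at 1.09, 0.0351 and 309.7 TPM in non-acclimated replicates 1, 2 and 3 and at 1.30, 0.352 and 328 TPM in cold-acclimated replicates 1, 2 and 3, so that it was near 0 in 4 of the 6 libraries. Trac, the constant part of the T cell receptor alpha chain, was at 207, 15.0 and 185 TPM and 184, 12.8 and 129 TPM in the same order, lowest in both libraries of replicate 2. The libraries labelled as D10 cells thus did not have 1 pattern of these markers. Markers of B cells summed to at most 1.11 TPM, with Ms4a1 at 0 throughout, and those of macrophages and monocytes to 2.46 to 21.2 TPM, with C1qa at 0 throughout. Erythroid markers summed to 61.4 to 486 TPM, nearly all of it Hba-a1, with Hbb-bs at 0 throughout. The macrophage and erythroid sums were highest in both libraries of replicate 3. Cd4, Trac and these sums differed more between replicate numbers than between temperatures, while Il2ra, an activation marker in the T cell list, fell (1687 ± 333 to 286 ± 59.9 TPM, SD, n = 3). The part of these differences in the results below was not tested. Libraries of the same number deviated together from the means of their conditions, with r of 0.480, 0.503 and 0.512 across tested genes, and the fit with the replicate as a block is given as an alternative. Because the numbers differ in this way, results are also given without both libraries of each number in turn.

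In the deposited TPM, Zfp transcripts made up a smaller share of all transcripts in cold-acclimated than in non-acclimated T cells. The 225 genes summed to 3412, 4046 and 3666 TPM in non-acclimated replicates 1, 2 and 3 and to 2726, 3156 and 3055 TPM in the cold-acclimated ones, so that the groups did not overlap. The median level of a Zfp gene was 10.7, 12.7 and 11.3 TPM against 7.04, 7.29 and 6.81 TPM. The sums and medians are of unscaled TPM. The median-of-ratios size factors, used below, were 1.12, 1.21 and 1.17 in non-acclimated and 0.844, 0.842 and 0.966 in cold-acclimated replicates 1, 2 and 3. Division by these factors lowers every non-acclimated and raises every cold-acclimated value. The fall in the sums and its lack of overlap are thus given for unscaled TPM only. Under 1 TPM were 0, 0 and 1 of the genes in non-acclimated libraries, and 16, 23 and 22 of them in cold-acclimated libraries. In bulk RNA, fewer cells that express a gene and less RNA per cell cannot be told apart.

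With limma on log2(TPM + 1) over all 12227 genes with a mean of at least 1 TPM, 70 of the 225 Zfp genes fell and 3 rose. Calls needed an adjusted p (Benjamini-Hochberg) below 0.05 and a change of 1 or more on the log2 scale, in either direction. The share that fell was 31.1%, against a background of 16.0% of all tested genes, and the share that rose was 1.33%, against 2.63%. All 73 called genes had groups that did not overlap. Over the 225 genes, the cold-acclimated values lay below all non-acclimated values in 109 (48.4%, background 31.4%) and above them in 17 (7.56%, background 9.69%). A Zfp gene was lower in each of the 3 replicate pairs in 135 cases (background 47.9% of tested genes), higher in each in 29 cases (background 18.2%) and of opposite sign between pairs in 61 cases, none of them called.

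**Figure D1:**
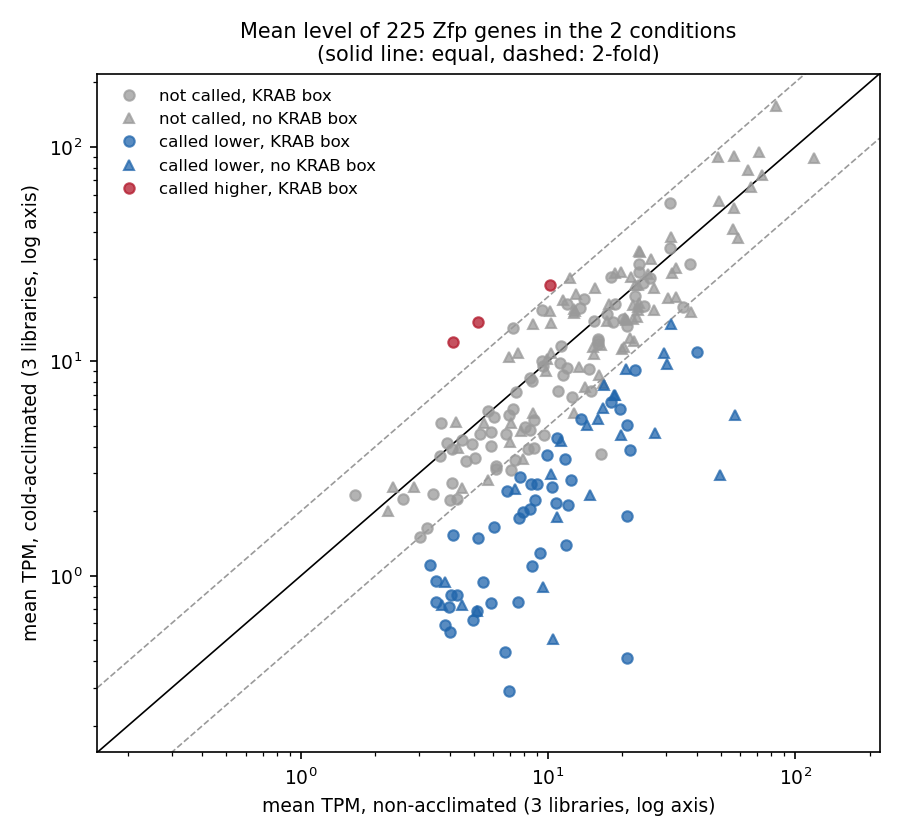
Mean TPM of each of the 225 Zfp genes in 3 non-acclimated libraries (horizontal, log axis) and 3 cold-acclimated libraries (vertical, log axis); circles carry a KRAB box, triangles do not, and colour gives the limma call. The 70 genes called lower spread below the lower dashed line, while the genes at the highest levels lie along the line of equal levels and the 3 called higher all carry a KRAB box.

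The median log2 fold change of the Zfp genes was -0.48, beside -0.34 for all tested genes, and within replicates 1, 2 and 3 it was -0.58, -0.63 and -0.50. Libraries were also scaled by size factors (median of ratios), which moved the median of all tested genes from -0.34 to 0.02. The Zfp median was then -0.15, so that relative to all tested genes it was -0.14 before and -0.17 after this scaling. Under quantile normalization the sign turned, with a Zfp median of 0.05 beside 0.03 for all tested genes, and 25 Zfp genes fell and 10 rose (backgrounds 6.26% and 5.98%). The sign of the Zfp median thus depended on the scaling. After median-of-ratios scaling, 44 Zfp genes fell (19.6%, background 8.79%) and 10 rose (4.44%, background 6.56%), so that 18.5% of the calls were rises in place of 4.11%. All 44 were among the 70 that fell without it, and the 3 that rose were called in both. Without both libraries of replicate 3, 80 genes fell and 6 rose (backgrounds 25.3% and 5.34%). Without both libraries of replicate 1 or of replicate 2, limma called 0 of the 12227 genes, since no adjusted p was below 0.164, and no other tool was run on these 4 libraries. At an unadjusted p under 0.05, 69 Zfp genes were then lower and 5 higher without replicate 1, and 70 lower and 3 higher without replicate 2, beside 94 and 11 with all libraries. The backgrounds of these were 16.4% and 3.27%, 15.1% and 3.11%, and 30% and 7.75%.

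The threshold on the level bears on this count. In 34 genes, the mean was below 2 TPM in cold-acclimated libraries only, and 32 of these were called lower. A gene with so low a level at 26°C could meet the rule only through its level at 37°C. Among the 190 genes with at least 2 TPM in both conditions, 38 (20%) fell and 3 rose, beside 14.9% and 1.90% of 9096 other protein-coding genes chosen in the same way. After scaling by the median of ratios, these 190 gave 18 that fell (9.47%, against 7.59% of the others) and 10 that rose (5.26%, against 6.21%).

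The 10 largest falls were in Zfp60, Zfp638, Zfp512, Zfp1005, Zfp3, Zfp934, Zfp41, Zfp935, Zfp763 and Zfp113. Each was called in every fit with a single library left out, and under each scaling, filter and pseudocount tried. Zfp60 (chromosome 7, 27430834 to 27451114), a KRAB gene with 19 fingers, was at 23.9, 25.1 and 13.4 TPM in non-acclimated replicates 1, 2 and 3 and at 0.285, 0.520 and 0.435 TPM in their cold-acclimated partners. Its mean was 50.4-fold lower, and the log2 fold change was -3.90 (standard error 0.32, limma adjusted p = 0.00673). The cold-acclimated values rest on 10, 19 and 18 recovered reads.

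Zfp638 (chromosome 6, 83844050 to 83963855), which binds DNA and RNA and is known for recruiting the silencing complex HUSH to retroviral DNA, was at 41.8, 58.0 and 48.7 TPM and then at 2.16, 1.73 and 4.97 TPM. The log2 change was -3.75 (standard error 0.35, limma adjusted p = 0.00673). Zfp512 (chromosome 5, 31609742 to 31639098) was at 50.3, 55.7 and 65.7 TPM and 2.42, 3.65 and 10.8 TPM, with a log2 change of -3.34 (standard error 0.45, limma adjusted p = 0.00744). Both had their highest cold-acclimated value in replicate 3, which still lay far below every non-acclimated value. Neither has a KRAB box by the pattern used.

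Zfp1005 (chromosome 2, 150099437 to 150112220) was at 21.2, 24.1 and 17.1 TPM and 1.84, 0.847 and 3.02 TPM, a log2 fold change of -2.97. Zfp3 (chromosome 11, 70655273 to 70663754) was at 9.04, 13.3 and 8.94 TPM and 0.127, 0.427 and 0.967 TPM, a log2 fold change of -2.94. In both, the lowest non-acclimated library lay several times above the highest cold-acclimated one. Zfp934 (chromosome 13, 62664609 to 62727170) was at 6.45, 6.68 and 7.69 TPM in non-acclimated libraries and was listed at 0 TPM in cold-acclimated replicates 1 and 2 and at 0.866 TPM in replicate 3, a log2 fold change of -2.69. Zfp935 (chromosome 13, 62600830 to 62614626), its neighbour, was at 12.2, 12.7 and 10.8 TPM and 0.888, 1.35 and 1.94 TPM, a log2 fold change of -2.45. These neighbours share sequence with other genes: 15.9% of the 100-base words of the Zfp934 transcript and 59.5% of those of Zfp935 occur in transcripts of another gene, so the counting could have split or dropped their reads.

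Zfp41 (chromosome 15, 75486972 to 75501676) was at 10.8, 11.2 and 6.64 TPM and 1.33, 0.559 and 0.777 TPM, a log2 fold change of -2.47. Zfp763 (chromosome 17, 33235838 to 33252355) was at 6.55, 10.1 and 3.46 TPM and 0.444, 0.394 and 0.492 TPM, a log2 fold change of -2.32. Zfp113 (chromosome 5, 138137964 to 138154043) was at 8.27, 7.89 and 6.43 TPM and 0.693, 0.461 and 1.11 TPM, a log2 fold change of -2.29. In these 3 genes, every cold-acclimated library was near 1 TPM or below. The limma adjusted p of the 8 genes after Zfp638 was between 0.00673 and 0.0101. All log2 fold changes are on the log2(TPM + 1) scale, which understates the change of a low gene.

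**Figure D2:**
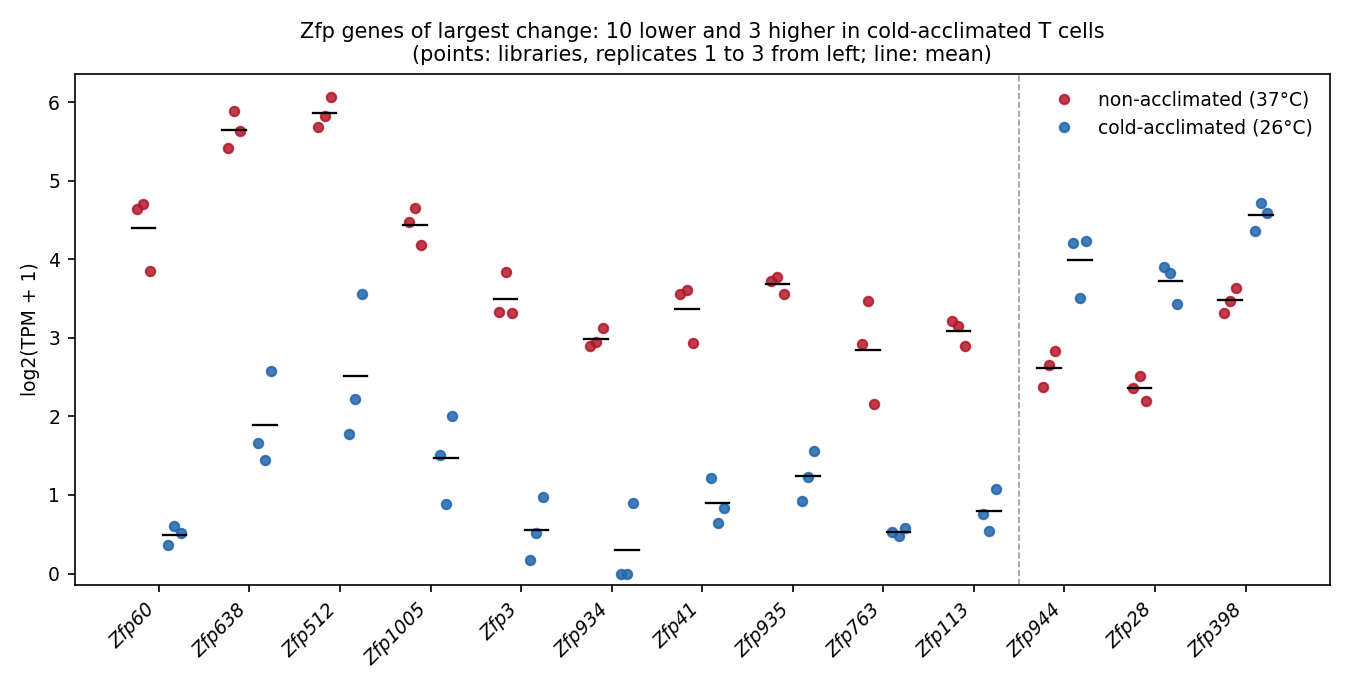
Level of the 10 Zfp genes with the largest falls and of the 3 that rose, as log2(TPM + 1) in each library (points, replicates 1 to 3 from the left) with the mean (line) of non-acclimated (red) and cold-acclimated (blue) T cells. The genes were picked among called genes whose groups do not overlap, so the lack of overlap follows from the choice. Cold-acclimated replicate 3 lies highest of its group in 8 of the 10 genes that fell.

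Zfp944, Zfp28 and Zfp398 were the genes that rose, and all 3 carry a KRAB box. Zfp944 (chromosome 17, 22556964 to 22580409) was at 4.21, 5.32 and 6.09 TPM in non-acclimated replicates 1, 2 and 3 and at 17.5, 10.4 and 17.8 TPM in their cold-acclimated partners, a 2.93-fold higher mean and a log2 change of 1.36 (standard error 0.30, limma adjusted p = 0.0214). Zfp28 (chromosome 7, 6386317 to 6399636) was at 4.15, 4.70 and 3.57 TPM and 14, 13.2 and 9.74 TPM, with a 2.97-fold higher mean and a log2 change of 1.36 (standard error 0.26, limma adjusted p = 0.0156). Zfp398 (chromosome 6, 47812567 to 47850476) was at 8.94, 10.1 and 11.5 TPM and 19.6, 25.4 and 23.1 TPM, with a 2.23-fold higher mean and a log2 change of 1.08 (standard error 0.24, limma adjusted p = 0.0214). Every cold-acclimated value of each gene was above every non-acclimated one, as the rule for naming them required. Each of the 3 lost its call when single libraries were left out (3 or 4 of 6 fits), with limma adjusted p between 0.00831 and 0.0873 over the 3 genes and 6 fits, and Zfp944 also with no filter on low values. All 3 calls were also made after median-of-ratios scaling, with log2 fold changes of 1.72, 1.71 and 1.46.

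The 6 Zfp genes with the highest levels were Zfp330, Zfp706, Zfp740, Zfp207, Zfp91 and Zfp622, and limma called none of them. Zfp330, a protein of the nucleolus, was at 97.7, 91.8 and 62.4 TPM in non-acclimated and 152, 184 and 128 TPM in cold-acclimated replicates 1, 2 and 3. The groups did not overlap, and the log2 fold change was 0.89 (standard error 0.26, limma adjusted p = 0.0510). It was called after median-of-ratios scaling, at 1.28 (limma adjusted p = 0.0256). Zfp91, a ubiquitin ligase that acts in noncanonical NF-kB signalling, was at 57.8, 47.8 and 64.9 TPM and 83.5, 90.5 and 97.5 TPM, also without overlap. Its log2 fold change was 0.67 (limma adjusted p = 0.0656), and with the median of ratios it was called, at 1.06 (limma adjusted p = 0.0207). For both genes, more than 10% of the transcript's 100-base words occur in another gene (15.7% and 35.3%). Zfp740 was at 66.8, 68.1 and 79.9 TPM and 58.5, 108 and 117 TPM, with 1 cold-acclimated library below and the others above every non-acclimated value.

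Some Zfp proteins work outside transcription, in RNA processing and translation. The list for ribosome assembly and translation holds 5 of the 225 genes, with a median log2 fold change of -0.02. Of these, limma called 0 and voom 0, and 1 was higher at an unadjusted p under 0.05. Zfp593, which takes part in the export of the large ribosomal subunit, was at 40.2, 50.8 and 55.7 TPM and 130.1, 77.8 and 61.7 TPM, so that the groups did not overlap but the difference was 1.67 in replicate 1, 0.61 in replicate 2 and 0.14 in replicate 3 on the log2 scale (limma adjusted p = 0.106). It was called higher after median-of-ratios scaling, at 1.20 (limma adjusted p = 0.0465). Zfp622, a late factor of the same subunit, Zfp598, a ubiquitin ligase at collided ribosomes, Zfp706 and Zfp692 had log2 fold changes of 0.27, -0.02, -0.44 and -0.34. Of the 6 genes for RNA binding and processing (median -0.49, beside -0.34 for all tested genes), Zfp638 fell as given above, and the others were not called. Zfp207, a spindle and splicing factor, was at 73.7 ± 13.8 TPM in non-acclimated and 73.7 ± 8.11 TPM in cold-acclimated T cells (SD, n = 3). Zfp326, which couples RNA polymerase II to splicing, was at 22.5 ± 5.31 and 22.7 ± 7.63 TPM. Zfp106, Zfp346 and Zfp830 had log2 fold changes of -0.63, -0.74 and -0.35, with no overlap between the groups in any of the 3 (limma adjusted p = 0.0838, 0.113 and 0.317).

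Among 14 chromatin and transcription cofactors, Zfp609 and Zfp217 fell and 0 rose (4 were lower and 0 higher at an unadjusted p under 0.05). These counts are near the backgrounds of 16.0% and 30% of all tested genes. With Zfp219, which was tested but lay below 2 TPM, the median of the 15 was -0.27. Zfp217, a partner of the CoREST corepressor, was at 23.4, 19.1 and 19.5 TPM and 7.64, 7.73 and 12.2 TPM, a log2 fold change of -1.11 (limma adjusted p = 0.0285). Zfp609, which binds the cohesin loader Nipbl, was at 14.2, 23.8 and 12.1 TPM and 4.83, 8.84 and 4.53 TPM, a log2 fold change of -1.32 (limma adjusted p = 0.0389). Both calls were lost with the median of ratios, at log2 fold changes of -0.74 and -0.96, and in 5 of the 6 fits without a single library (limma adjusted p up to 0.107 and 0.136). The other 12 lay between -0.85 and 0.39. At the low end were Zfp687 (-0.85, limma adjusted p = 0.0511), a member of a chromatin complex with Zfp592, and Zfp148 (-0.76, adjusted p = 0.0554). At the high end was Zfp451 (0.39, adjusted p = 0.255), a SUMO ligase. Zfp592 (0.01), Zfp644 (0.04), Zfp263 (0.18), Zfp131 (0.18), Zfp292 (0.19) and Zfp384 (0.27) were above 0, and Zfp574 (-0.48), Zfp335 (-0.38) and Zfp281 (-0.27) below, and of these Zfp574 alone had groups that did not overlap.

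Of 5 genes listed for lymphocyte development and function, which include Zfp91, Zfp335 and Zfp281, 1 fell, and the median was -0.38. That was Zfp260, at 20.3, 28.4 and 10.4 TPM and 3.23, 5.70 and 4.67 TPM, a log2 fold change of -1.82 (limma adjusted p = 0.0210), and its call was lost in 4 of the 6 fits without a single library and with quantile normalization, no filter or voom. Zfp367 was at 20.1, 24.4 and 36.4 TPM and 8.96, 8.38 and 48.9 TPM, lower in cold-acclimated replicates 1 and 2 and higher in replicate 3. It was called lower only without cold-acclimated replicate 3, alone or with its pair. Of 5 genes listed for the silencing of retroelements or imprinted loci, limma called 0 and voom 0. Zfp445, which maintains genomic imprints, was at 33.4, 42.0 and 36.8 TPM and 22.1, 39.8 and 23.6 TPM (limma adjusted p = 0.320). Zfp809, which silences murine leukemia virus through its primer binding site, was at 11.8, 11.7 and 14.2 TPM and 7.17, 7.06 and 6.15 TPM, without overlap (log2 fold change -0.79, limma adjusted p = 0.0516, a blocked adjusted p of 0.0394). Zfp568, a repressor of a placental Igf2 transcript, Zfp932 and Zfp992 had log2 fold changes of -0.34, -0.36 and 0.09, with overlapping groups. For Zfp932 and Zfp992, 49.5% and 39.1% of the transcript's 100-base words occur in another gene.

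Genes with a KRAB box fell somewhat more often than those without, which is described here with no test of the difference. Of the 70 genes that fell, 32 were below 2 TPM at 26°C and met the rule through their 37°C level. These genes also enter the counts by fingers, GC content, clusters and promoter CG below. With at least 2 TPM in both conditions, the KRAB share was the higher only at 5 to 10 TPM, as given below. Of 121 KRAB genes, 45 fell and 3 rose, with a median log2 fold change of -0.65. Of 104 genes without a KRAB box, 25 fell and 0 rose, with a median of -0.44. The backgrounds were 16.0% and 2.63% of all tested genes. After median-of-ratios scaling, 29 KRAB genes fell and 5 rose, and 15 of the others fell and 5 rose (backgrounds 8.79% and 6.56%). In unscaled TPM, KRAB genes summed to 1287, 1515 and 1212 TPM in non-acclimated libraries and to 829, 1036 and 921 TPM in cold-acclimated ones. These groups did not overlap, and the sums were not computed after median-of-ratios scaling. The others summed to 2124, 2531 and 2454 TPM and to 1897, 2120 and 2134 TPM, where cold-acclimated replicate 3 was above non-acclimated replicate 1. By the length of the array, 1 of 11 genes with at most 1 finger fell, 10 of 42 with 2 to 5, 16 of 54 with 6 to 9, 25 of 69 with 10 to 13, and 18 of 49 with 14 or more, beside 16.0% of all tested genes. In the same order, 0, 0, 1, 1 and 1 rose. After median-of-ratios scaling, 0, 6, 11, 17 and 10 fell (background 8.79%), and 2, 4, 2, 1 and 1 rose.

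The counts were set beside the level of the genes. Of the 75 Zfp genes with the lowest means over 6 libraries, 35 fell and 0 rose, of the middle 75, 27 fell and 2 rose, and of the 75 with the highest means, 8 fell and 1 rose. The backgrounds were 16.0% and 2.63% of all tested genes. Scaled by the median of ratios, these counts were 25 and 0, 13 and 4, and 6 and 6, beside 8.79% and 6.56% of all tested genes. The highest 75 were then near the background, at 8% each way. These classes are not independent of the outcome, since a fall at 26°C lowers the mean. Across genes, Spearman's rho of the log2 fold change with the non-acclimated level was only 0.11 over the 225 Zfp genes (0.03 with and 0.06 without a KRAB box), beside 0.12 over 9653 other protein-coding genes.

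By mean level, the share that fell was 27 of 54 Zfp genes against 22.8% of 937 other protein-coding genes at 2 to 5 TPM, 40.7% of 54 against 27.7% of 1113 at 5 to 10 TPM, and 23.5% of 68 against 24.9% of 1727 at 10 to 20 TPM. It was 12.8% of 39 against 17.7% of 2514 at 20 to 50 TPM, and 0 of 10 against 6.90% of 3362 at 50 TPM or more. Most genes that met the rule through their 37°C level alone lie in the first of these classes. With at least 2 TPM in both conditions, the shares were 2 of 26 Zfp genes against 5.85% of 479 others at 2 to 5 TPM, 34.7% of 49 against 22.7% of 1023 at 5 to 10 TPM, and 21.2% of 66 against 24.6% of 1718 at 10 to 20 TPM. By the non-acclimated level, they were 37.1% of 35 against 9.15% of 667 below 5 TPM, 36.1% of 61 against 23.1% of 1064 at 5 to 10 TPM, 33.3% of 66 against 21.9% of 1627 at 10 to 20 TPM, and 23.1% of 52 against 20.7% of 2730 at 20 to 50 TPM. At 50 TPM or more, 1 of 11 fell against 11.2% of 3565. Where the Zfp share lay above that of other genes thus depended on how the level was measured, and the classes of 5 to 10 TPM gave a higher Zfp share in all 3 ways. The classes by non-acclimated level and by both conditions were chosen after the values were seen.

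Between Zfp genes with and without a KRAB box, the shares that fell by mean level were 52.4% of 42 and 41.7% of 12 at 2 to 5 TPM, 40.5% of 37 and 41.2% of 17 at 5 to 10 TPM, and 23.3% of 30 and 23.7% of 38 at 10 to 20 TPM. They were 1 of 12 and 4 of 27 at 20 to 50 TPM, and no KRAB gene reached a mean of 50 TPM. With at least 2 TPM in both conditions, 1 of 18 KRAB genes and 1 of 8 others fell at 2 to 5 TPM. In the same way, 13 of 35 and 4 of 14 fell at 5 to 10 TPM, and 5 of 28 and 9 of 38 at 10 to 20 TPM. The higher share of KRAB genes at 2 to 5 TPM was thus not seen among genes with at least 2 TPM in both conditions. The difference was not tested in any class.

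Transcripts of KRAB genes had a median GC content of 41.3%, those of Zfp genes without a KRAB box 50.8% and those of other protein-coding genes 50.2%. Of 50 Zfp genes with a transcript GC content under 40%, 27 fell and 1 rose, and of 175 with more, 43 fell and 2 rose. With the median of ratios, these were 17 and 2, and 27 and 8, beside 8.79% and 6.56% of all tested genes. Among other protein-coding genes, the share that fell was 17.8% of 360 under 40% GC, 17.6% of 1762 at 40 to 45% and 17.9% of 2524 at 45 to 50%, against 54.0%, 31.3% and 15.0% of the Zfp genes. At 50 to 55% it was 17.9% of 2534 against 32.4% of 37 Zfp genes, and at 55% or more 14.4% of 2314 against 14.7% of 34. Across genes, Spearman's rho of the log2 fold change with GC content was 0.24 over 225 Zfp genes and 0.01 over 9494 other genes. It was 0.30 over the 121 with a KRAB box and 0.09 over the 104 without one. From the lowest to the highest GC class, 24 of 42, 16 of 44, 3 of 20, 2 of 12 and 0 of 3 KRAB genes fell. Without a KRAB box, 3 of 8, 4 of 20, 3 of 20, 10 of 25 and 5 of 31 fell. These genes share libraries and are not independent. The median non-acclimated level was 10.3, 9.61 and 15.6 TPM in the 75 Zfp genes of lowest, the 75 of middle and the 75 of highest GC content, and the cold-acclimated level was 4.12, 6.79 and 11.9 TPM.

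**Figure D3:**
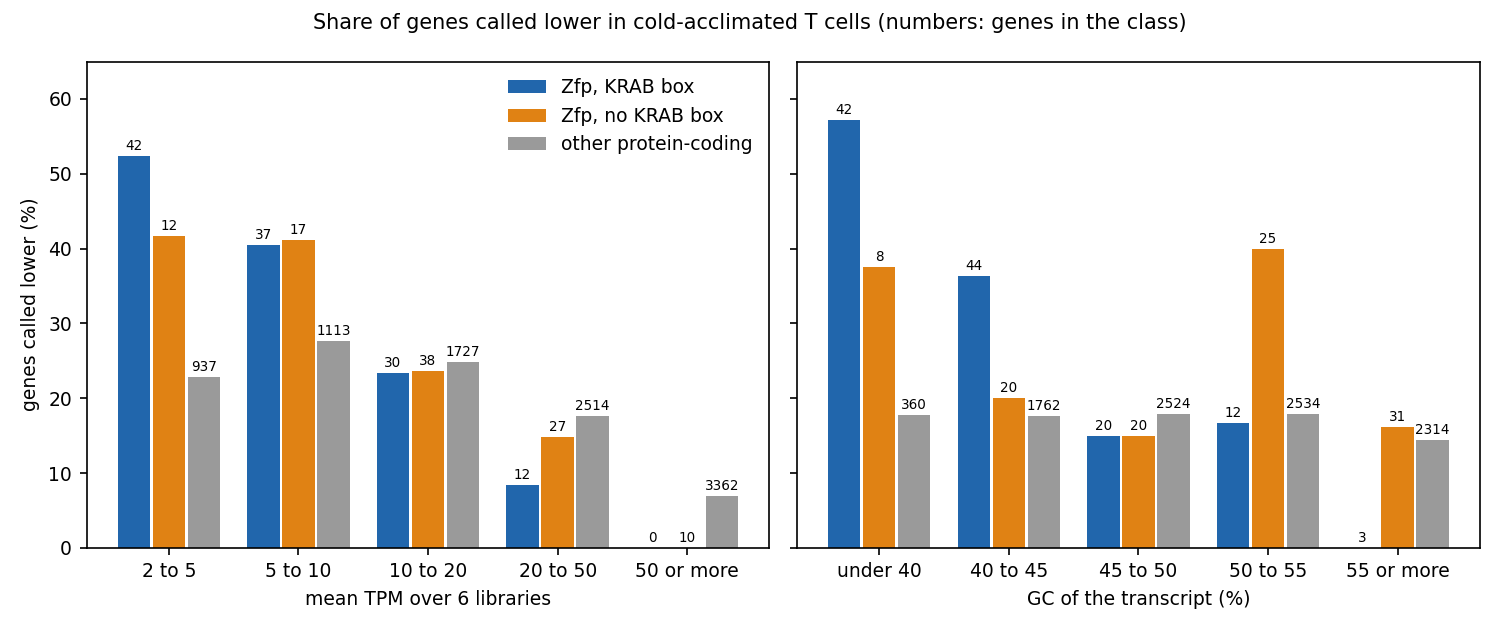
Percentage of genes called lower in cold-acclimated T cells by limma, by mean TPM over 6 libraries (left) and by GC content of the transcript (right), for Zfp genes with a KRAB box (blue), Zfp genes without one (orange) and other protein-coding genes with a mean of at least 2 TPM (grey); numbers above the bars count the genes in each class. Both Zfp groups stand above the other genes below 10 TPM, where many genes at 2 to 5 TPM met the rule through their 37°C level. With at least 2 TPM in both conditions (not drawn), 1 of 18 KRAB genes and 1 of 8 without the box fell at 2 to 5 TPM, against 5.85% of other genes. By GC, the KRAB genes stand above the other genes under 45%, and Zfp genes without a KRAB box in every class but 45 to 50%.

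Neighbouring Zfp genes were grouped where the gap between them was at most 500000 bases. This gave 17 clusters of at least 4 genes with 104 genes in all, of which 40 fell and 3 rose, beside 30 and 0 of the 121 genes outside and 16.0% and 2.63% of all tested genes. These became 24 and 5, and 20 and 5, after median-of-ratios scaling, beside 8.79% and 6.56% of all tested genes. On chromosome 7 (27430834 to 27713634, GRCm39), Zfp60, Zfp626, Zfp59 and Zfp974 fell, by log2 fold changes of -3.90, -1.54, -1.68 and -1.37, while Zfp850 between the same bounds was at 11.3 ± 4.07 TPM and 11.8 ± 4.15 TPM (SD, n = 3). In Zfp59, 25.6% of the 100-base words occur in another gene. On chromosome 2 (149956327 to 150326983), Zfp120, Zfp1004, Zfp1005 and Zfp345 fell, by -1.71, -2.22, -2.97 and -1.50, while Zfp1001 was at 20.03 ± 4.51 TPM and 15.8 ± 1.86 TPM. On chromosome 7 (12537705 to 12718323), Zfp329, Zfp324 and Zfp446 fell, by -1.66, -2.22 and -1.88, while Zfp110 was at 24.3 ± 5.63 TPM and 23.3 ± 5.34 TPM. In each of these clusters, 1 gene had overlapping groups and no call beside neighbours that fell.

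On chromosome 13 (67342570 to 67903321), 7 of 9 genes fell, and the median log2 fold change was -1.36. They ran from Zfp738, at 5.86 ± 0.810 TPM in non-acclimated and 0.749 ± 0.383 TPM in cold-acclimated T cells, to Zfp65, at 7.69 ± 1.13 and 2.88 ± 0.25 TPM. After median-of-ratios scaling, 3 of the 9 fell. On chromosome 8 (72635912 to 72724177), Zfp709, Zfp882 and Zfp617 fell, by -1.56, -1.84 and -1.82, and Zfp961 was at -0.93 (limma adjusted p = 0.0584). The largest cluster, 13 genes on chromosome 17 (21229203 to 23086285), held both directions. Zfp160, at 16.3, 20.5 and 27.4 TPM and 2.68, 3.48 and 5.47 TPM, fell with Zfp677, Zfp54, Zfp53 and Zfp943, while Zfp944 rose, and with the median of ratios only Zfp160 and Zfp944 were called in it. Zfp983 in the same cluster was called lower only with the replicate as a block, where its limma adjusted p was 0.00586 in place of 0.0542. On chromosome 6 (47812567 to 48064275), the median of 6 genes was above 0, at 0.58. There Zfp398 rose and Zfp282 fell (-1.19), and Zfp746 was at 32.9, 38.7 and 21.5 TPM and 64.4, 60.3 and 39.6 TPM without a call (0.81, limma adjusted p = 0.0990), but with the median of ratios Zfp746 was called higher (1.20) and Zfp282 was not called.

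**Figure D4:**
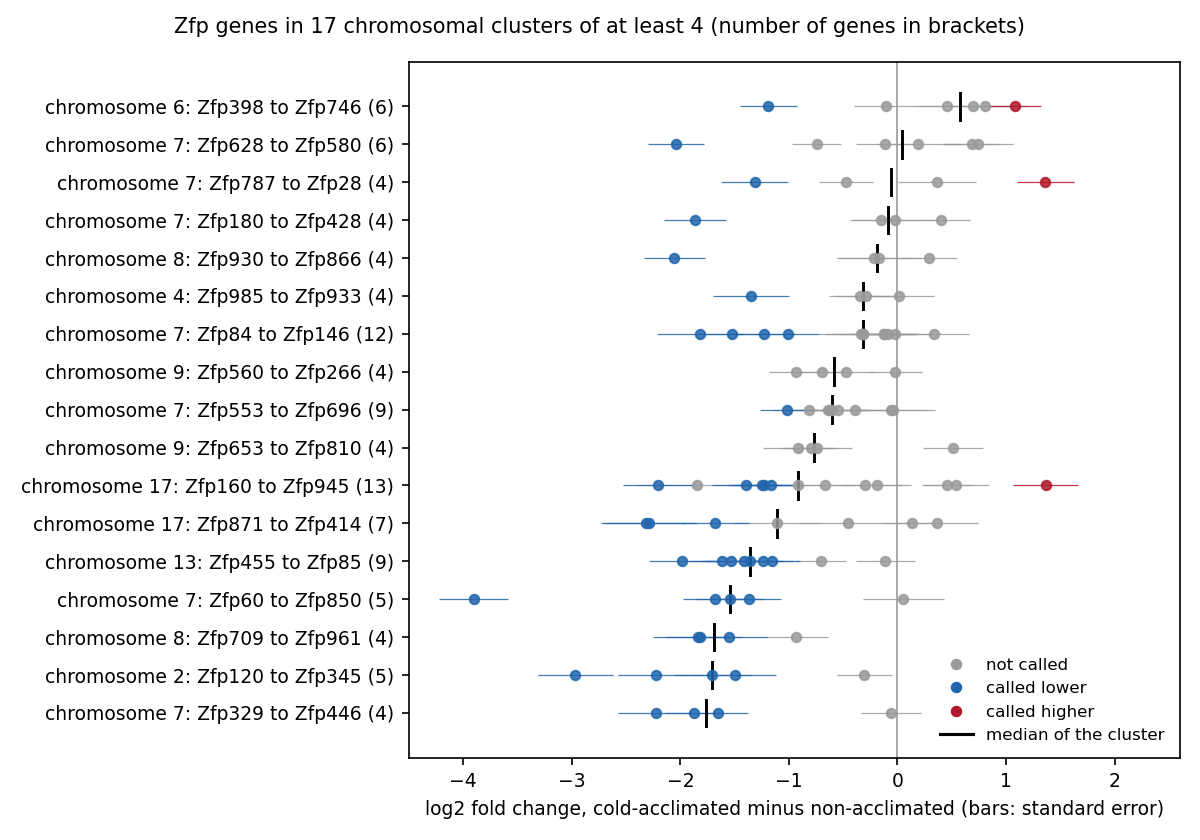
Log2 fold change, cold-acclimated minus non-acclimated, of each Zfp gene in 17 chromosomal clusters (points, with standard errors from limma), ordered by the cluster's median (black line) and named by the first and last gene. Clusters at the bottom have medians below -1, and the cluster of Zfp398 to Zfp746 on chromosome 6 has a median of 0.58.

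The proteins that act with KRAB zinc fingers were described from a list of 20 genes. Of these, 7 fell and 0 rose, beside 16.0% and 2.63% of all tested genes. At an unadjusted p under 0.05, 11 were lower and 0 higher, beside 30% and 7.75%. The median log2 fold change was -0.90, beside -0.34 for all tested genes. The scaffold Trim28, which KRAB boxes bind, was at 285, 391 and 352 TPM in non-acclimated replicates 1, 2 and 3 and at 415, 358 and 291 TPM in their cold-acclimated partners, with overlapping groups (limma adjusted p = 0.917). Setdb1, the histone methyltransferase that Trim28 recruits, was at 39.7, 56.1 and 60.0 TPM and 20.8, 21.6 and 23.0 TPM, a log2 change of -1.19 (standard error 0.24, limma adjusted p = 0.0177). Atf7ip, the partner of Setdb1, was at 32.6, 27.0 and 18.4 TPM and 5.32, 6.75 and 10.2 TPM, a log2 fold change of -1.69 (limma adjusted p = 0.0156). Every cold-acclimated value of Setdb1 and Atf7ip was below every non-acclimated one.

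Of the HUSH complex, which silences retroelements, Tasor was at 13.3, 7.91 and 7.58 TPM and 0.919, 0.874 and 0.867 TPM (log2 fold change -2.45, limma adjusted p = 0.00697), and Mphosph8 at 23.1, 24.2 and 23.2 TPM and 7.95, 7.86 and 8.79 TPM (-1.41, adjusted p = 0.00904). Their partner Pphln1 was at 32.7, 32.2 and 53.8 TPM and 46.2, 52.4 and 67.7 TPM, not called. Of the heterochromatin proteins, Cbx1 was at 90.0, 122 and 108 TPM and 22.6, 22.0 and 56.0 TPM (-1.77, limma adjusted p = 0.0205), and Cbx5 at 70.6, 70.6 and 143 TPM and 2.02, 1.68 and 27.1 TPM (-3.89, adjusted p = 0.0220). Cold-acclimated replicate 3 held more of both than the other cold-acclimated libraries, and Cbx3 was not called (-0.44, adjusted p = 0.330). Uhrf1, which guides the maintenance of DNA methylation, was at 185, 234 and 229 TPM and 46.5, 25.2 and 145 TPM (-1.93, limma adjusted p = 0.0498). Dnmt1, the maintenance DNA methyltransferase, was at 195, 228 and 323 TPM and 25.2, 19.0 and 161 TPM (-2.47), just short of a call (limma adjusted p = 0.05003), and was called lower with the replicate block (adjusted p = 0.0103). Of the 20 genes, 5 fell after median-of-ratios scaling (background 8.79%), with Setdb1 and Uhrf1 no longer called. Leaving out single libraries gave between 1 and 11 genes that fell, the most without cold-acclimated replicate 3. The backgrounds ran from 2.82% to 22.3% over these fits, also highest without that library. Without both libraries of replicate 3, 11 fell (background 25.3%). Without both of replicate 1 or of replicate 2, limma called 0 and 6 were lower at an unadjusted p under 0.05 (backgrounds 16.4% and 15.1%).

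The differences of single Zfp genes were alike between replicate pairs in rank. Spearman's rho over the 225 genes was 0.89 between replicates 1 and 2, 0.73 between 1 and 3 and 0.81 between 2 and 3, as a description across genes measured in the same libraries. Differences in replicate 3 were in part smaller, as for Zfp60, with -4.28, -4.10 and -3.33 in replicates 1, 2 and 3, and Zfp512, with -3.91, -3.61 and -2.50. With the replicate number as a block in the limma model, which the pairing above allows, 74 Zfp genes fell and 3 rose (backgrounds 21.9% and 3.75%), and all 73 calls made without the block were among them. Of the 70 genes that fell, 19 were called in every fit that left out 1 library, and of the 3 that rose, 0 were.

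The counts under the other settings moved with their backgrounds. With a pseudocount of 0.1, 73 Zfp genes fell and 3 rose (backgrounds 16.0% and 2.58%), and with no filter on low values 43 fell and 2 rose (5.29% and 0.868% of 21195 genes). With voom on the recovered reads, 48 fell and 8 rose (9.18% and 6.27%). Leaving out cold-acclimated replicate 1 left 23 that fell and 0 that rose (3.68% and 0.589%), cold-acclimated replicate 2 left 29 and 1 (4.91% and 0.638%), and cold-acclimated replicate 3 gave 75 and 8 (22.3% and 3.75%). Leaving out non-acclimated replicate 1 left 27 and 0 (4.31% and 0.638%), non-acclimated replicate 2 left 19 and 0 (2.82% and 0.483%), and non-acclimated replicate 3 left 61 and 3 (14.9% and 3.23%). The share of Zfp genes that fell was above the background in each of these fits. With no filter, the background includes genes with a mean below 1 TPM, whereas each Zfp gene had at least 2 TPM. These 2 shares thus cover unlike levels and cannot be compared directly. Leaving out any library of replicate 1 or 2 gave fewer than 30 falls, and leaving out one of replicate 3 gave 61 or 75.

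**Figure D5:**
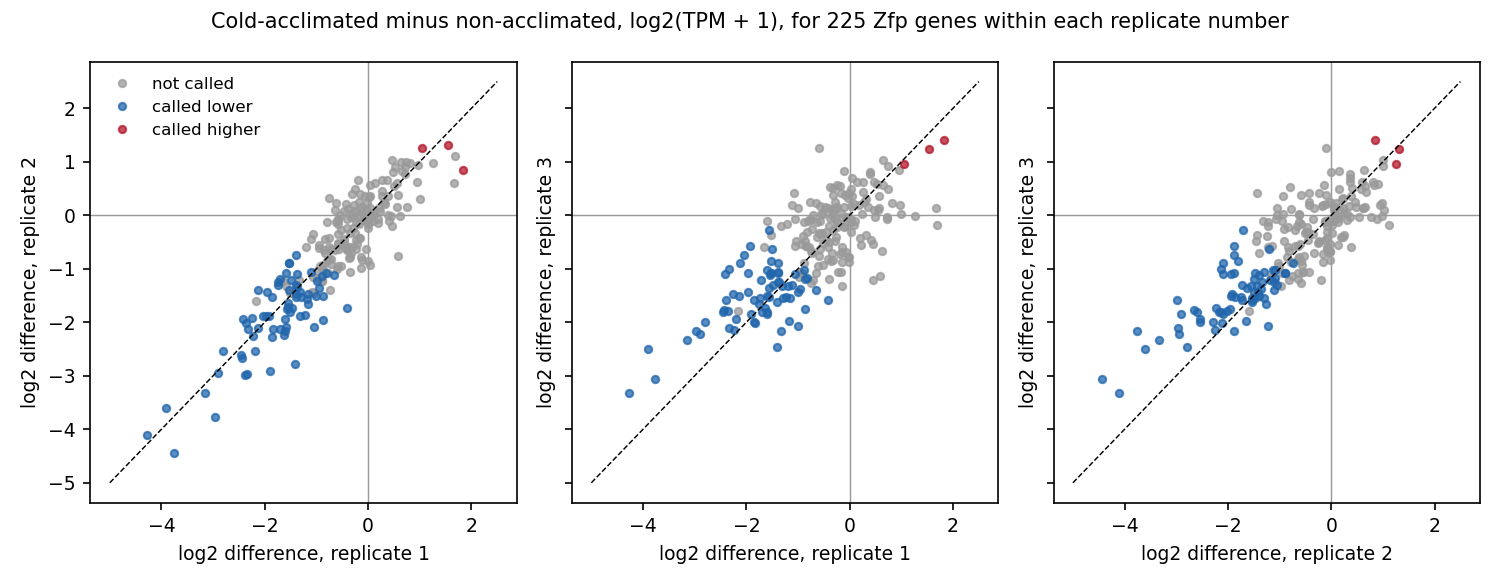
Difference between the cold-acclimated and the non-acclimated library on the log2(TPM + 1) scale for each of the 225 Zfp genes, each panel setting 1 replicate number against another; the dashed line marks equal differences and colour gives the limma call. Genes called lower lie in the lower left of all 3 panels, and Zfp60 and Zfp512, among the largest falls, had a smaller difference in replicate 3 than in the others.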

How the data were processed

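The sources used here give FastQC 0.11.7, Trimmomatic 0.38, HISAT2 2.1.0, featureCounts 1.6.3 and GRCm39 (the submitters' processing notes). Not given in the sources used here are the annotation release, the strand setting and the TPM formula, so reads of overlapping and antisense genes may not be told apart. The deposited values are TPM, made by the authors from read counts, and each library sums to 1000000. Read numbers were recovered from the steps of the TPM values (100% of 21195 genes, whole within 1e-06 reads). In its poorest library, a Zfp gene rested on a median of 193 reads, so counting error bears most on the lowest genes.

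Groups were set by the labels' temperature. The main test was limma 3.58.1 (R 4.3.3) with its trend option, on log2(TPM + 1) of the 12227 genes whose mean reached 1 TPM, and p-values were adjusted over all of them (Benjamini-Hochberg). Replicate numbers pair the libraries, by the correlations in the text. The alternatives were a pseudocount of 0.1, no filter, median of ratios scaling, quantile normalization, a replicate block, voom on the recovered reads, each library left out, and, chosen after seeing the data, both libraries of a replicate number left out. The scripts were tested on simulated data. p-values measure only the spread between these libraries, all labelled as the same cell line.

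Members, lists and the rule for named genes (the 10 largest called changes in each direction, the 6 highest levels, members of 5 role lists, the genes about the threshold, and called genes of the KRAB machinery) were chosen with earlier results of these data known, and the falls of Zfp60, Zfp638 and Cbx5 had been seen. The largest called changes were taken among genes whose groups did not overlap, which held for all 73 called genes. Other genes of the clusters and the machinery genes without a call were named after their values were seen. All 225 genes matched GENCODE vM39 by identifier. Fingers and KRAB boxes were found by patterns in its translated coding transcripts, since no protein table was used. Of the 225 genes, 22 shared over 10% of their 100-base words with another gene, 9 of them called lower. Promoters came from RefSeq (GRCm38.p6, 300 bases each, 189 genes). Python 3.11.15, numpy 2.4.6, pandas, scipy and matplotlib were used for the rest.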

Additional observations from a re-analysis of the deposited data

How the results depend on the processing

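The count of Zfp genes that fell was 70, and it was 44 with the median of ratios, 25 with quantile normalization, 43 with no filter on low values, 48 with voom, 73 with a pseudocount of 0.1 and 74 with the replicate block. Leaving out 1 library gave 19 to 75, the fewest without non-acclimated replicate 2 and the most without cold-acclimated replicate 3, and leaving out both libraries of a replicate number gave 0, 0 and 80. The count that rose was 3, and it was 10 with the median of ratios, 10 with quantile normalization and 8 with voom, 0 to 8 without 1 library and 0, 0 and 6 without both libraries of a number. The median log2 fold change of -0.48 became -0.15 with the median of ratios, -0.57 with a pseudocount of 0.1, -0.17 with voom and, with its sign reversed, 0.051 with quantile normalization. It was between -0.58 and -0.42 without 1 library and -0.52, -0.49 and -0.55 without both of a number. Of the 20 genes of the KRAB machinery, 7 fell, 4 with quantile normalization, 4 with no filter, 1 to 11 without 1 library and 0, 0 and 11 without both of a number. In the same order, the backgrounds were 16.0%, 6.26%, 5.29%, 2.82% to 22.3%, and 0, 0 and 25.3% of the genes tested. The block, by which libraries of the same replicate number are paired, added calls of Zfp983 and Dnmt1 and changed no other call of a gene named in the text. Fits without 1 library assume that the smaller group varies like the other. The causes of these changes were not tested. Genes near 2 TPM rest on few reads, so that small changes in them may not have been detectable at this depth.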

Other observations

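The 300-base RefSeq promoter windows (GRCm38.p6, from 250 bases before to 50 after the start) of 189 Zfp genes held a median of 16 CG dinucleotides. Of the 63 genes with the fewest, 27 fell and 0 rose in cold-acclimated T cells, beside 16.0% and 2.63% of all tested genes. Their median log2 fold change was -0.79. Of the middle 63, 19 fell and 1 rose, with a median of -0.32, and of the 63 with the most, 10 fell and 2 rose, with a median of -0.46. With the median of ratios these were 19 and 0, 13 and 4, and 4 and 4, beside 8.79% and 6.56% of all tested genes. Spearman's rho of the log2 fold change with the number of CG dinucleotides was 0.22 over the 189 genes. It was 0.14 over 106 with a KRAB box, -0.01 over 83 without one and 0.09 over 7817 other protein-coding genes. Genes with few CG dinucleotides were also the lower in level, with median non-acclimated levels of 8.69, 10.2 and 15.6 TPM in this order.

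Of the 24 Zfp genes with a mean between 1 and 2 TPM, outside the rule, 7 fell and 1 rose. The backgrounds were 16.0% and 2.63% of all tested genes. Genes of the Zbtb family join zinc fingers to a BTB domain, and 29 of them had a mean of at least 2 TPM. Of these, 7 fell (24.1%) and 0 rose, beside the same backgrounds. After median-of-ratios scaling, 6 fell (20.7%, background 8.79%) and 1 rose (3.45%, background 6.56%). The Zbtb median log2 fold change was -0.67, beside -0.48 for the Zfp genes and -0.34 for all tested genes. Of the 10 chromosomes with at least 10 Zfp genes, the number that fell was 2 of 10 on chromosome 11, 10 of 16 on 13, 10 of 24 on 17, 6 of 14 on 2, 2 of 12 on 4, 3 of 14 on 5, 5 of 15 on 6, 17 of 58 on 7, 7 of 18 on 8 and 1 of 13 on 9, beside 16.0% of all tested genes. After median-of-ratios scaling, it was 2, 6, 4, 4, 1, 2, 3, 12, 5 and 0 in the same order, beside 8.79%.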
